A study of Homo sapiens with 4 samples.

Results

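The genes described here build and run the DNA replication machinery. They are 50 genes for origin licensing and firing, the replicative polymerases, the sliding clamp and its loaders, fork protection, and the assembly and methylation of new chromatin. They were chosen by function, and the subunits of the MCM helicase were left out. A member counts as measured where at least 1 of its probes reached a detection p under 0.01 on 1 or more arrays. This left 48 of the 50 genes, out of 10921 genes measured in all, and 63 of their 71 probes. In 47 of the 48 the probe used here was detected on all 4 arrays. No gene passed that filter only through the control array, and ORC4 alone passed it only through siEPEL arrays.

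RNA came from A549 cells, a human lung adenocarcinoma line. The cells were transfected with a non-targeting siRNA or with 1 of 3 siRNAs to EPEL, a long noncoding RNA. All samples had 50 nM siRNA, 150000 to 200000 cells and a treatment time of 48 hours. There was 1 control array and 3 siEPEL arrays, each with a different siRNA, called siRNA 1, siRNA 2 and siRNA 3 here after the numbers in the labels. All were Illumina HumanHT-12 BeadChips of 47228 probes, with a mean raw signal between 381 and 404 and between 35.0% and 36.2% of probes detected. All 3 siRNA ratios share the single control array, so a deviation of that array would enter each of them. Nothing in the labels states whether the treated cells came from separate starting cultures. Each sample had its own siRNA and none was repeated. The p-values then measure only the spread between these samples, which mixes differences between siRNAs, cultures and arrays. EPEL itself could not be followed, since 0 probes carried its name.

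The labelled cell type was checked against its markers. All 6 keratin, cadherin and EPCAM genes were detected on all 4 arrays, as were 3 of 4 enzymes typical of A549 that had a named probe. Of 5 alveolar type II markers, SFTPA1, SFTPB, SFTPC and NKX2-1 were detected on 0 arrays and LAMP3 on 4. All 3 endothelial markers were detected on 0 arrays, and so were 3 of 4 leukocyte and 3 of 4 fibroblast markers, the exceptions being CD14 and LUM.

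As background, replication starts when the origin recognition complex (ORC), CDC6 and CDT1 load the MCM helicase on DNA, an event called licensing. Kinases then recruit CDC45 and the GINS complex, which turn the helicase into the active motor of the fork, and polymerases, the PCNA clamp and histone chaperones follow it. Many of these genes are transcribed at the G1/S transition under E2F factors, and EPEL has been described as an RNA linked to E2F. The sequences before the start of 6 members are shown, all but that of CDC45 with an exact match to a short E2F form given below. They were chosen after values were seen, 5 for low levels with siEPEL and PCNA for a level close to the control. The 5 are not the lowest members. CDC6, FEN1, POLE4 and POLE2 had lower log2 fold changes than GINS2 and are not shown, and FEN1 held none of the motifs. The printed stretches therefore do not give the share of low members with a motif. Each stretch is the 120 bases directly before the transcript start, 5′ to 3′ on the gene's strand, from RefSeq's promoter windows of GRCh38.p14. Capitals mark TTCCCGC and TTGGCGC, short forms of the E2F consensus, and CCAAT, bound by NF-Y, on either strand.
CHAF1A, chr19:4402520-4402639, plus strand: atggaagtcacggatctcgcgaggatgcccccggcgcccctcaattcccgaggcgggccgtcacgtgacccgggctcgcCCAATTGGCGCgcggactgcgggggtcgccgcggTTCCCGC
CDT1, chr16:88803669-88803788, plus strand: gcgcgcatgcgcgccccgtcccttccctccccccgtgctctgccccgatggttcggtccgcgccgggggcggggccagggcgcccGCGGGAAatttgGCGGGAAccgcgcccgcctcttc
GINS2, chr16:85688955-85689074, minus strand: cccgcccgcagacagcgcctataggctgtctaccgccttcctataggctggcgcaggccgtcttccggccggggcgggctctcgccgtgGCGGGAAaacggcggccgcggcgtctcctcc
TOPBP1, chr3:133661942-133662061, minus strand: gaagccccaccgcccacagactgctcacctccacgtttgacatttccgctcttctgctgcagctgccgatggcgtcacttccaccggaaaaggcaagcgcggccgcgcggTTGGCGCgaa
CDC45, chr22:19479800-19479919, plus strand: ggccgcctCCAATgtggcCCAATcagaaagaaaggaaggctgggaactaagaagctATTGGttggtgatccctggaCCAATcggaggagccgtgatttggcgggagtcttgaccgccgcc
PCNA, chr20:5126623-5126742, minus strand: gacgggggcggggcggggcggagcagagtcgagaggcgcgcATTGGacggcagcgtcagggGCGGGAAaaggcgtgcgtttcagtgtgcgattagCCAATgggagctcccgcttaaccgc

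CHAF1A holds a CCAAT box that overlaps its TTGGCGC match, and a TTCCCGC match that ends at the base before the start. CDT1 holds 2 TTCCCGC matches close together. CDC45 has 4 CCAAT boxes and no exact match to either E2F form, which says only that these letters are not in the window. Its stretch does hold ttggcgg, which differs from TTGGCGC in the last base. Only exact letters were searched, so other forms of the consensus were not counted.

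Most of the 48 measured genes stood below the control array, by small amounts that no gene's test could separate from the spread between arrays. The median gene was 19.4% below the control with siRNA 1, 13.1% below with siRNA 2 and 6.45% below with siRNA 3. This is a mean log2 median of -0.20 ± 0.11 (SD, 3 siRNAs), against 0.00052 ± 0.0022 over all genes. The lowest gene was CHAF1A, at a log2 fold change of -0.56, and the highest was PRIM2, at 0.35. With limma, 0 of 48 passed an adjusted p under 0.05, against 0.00% of all genes, and the adjusted p of each member came to 1.00. The count at an unadjusted p under 0.05 was also 0 of 48, against 0.778% of all genes lower and 0.934% higher. Fewer cells in S phase and less of these transcripts in each cell cannot be told apart in bulk RNA.

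The control array lay above all 3 siEPEL arrays in 25 of the 48 genes, where the share over all genes was 20.3%. It lay below all 3 in 1 gene, ORC4, against 20.5% over all genes, and within their range in 22. The members were picked with earlier results of these arrays known, so these counts describe the genes and test nothing. With 4 arrays, an exact permutation test of a single gene cannot give a p below 0.25.

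**Figure D1:**
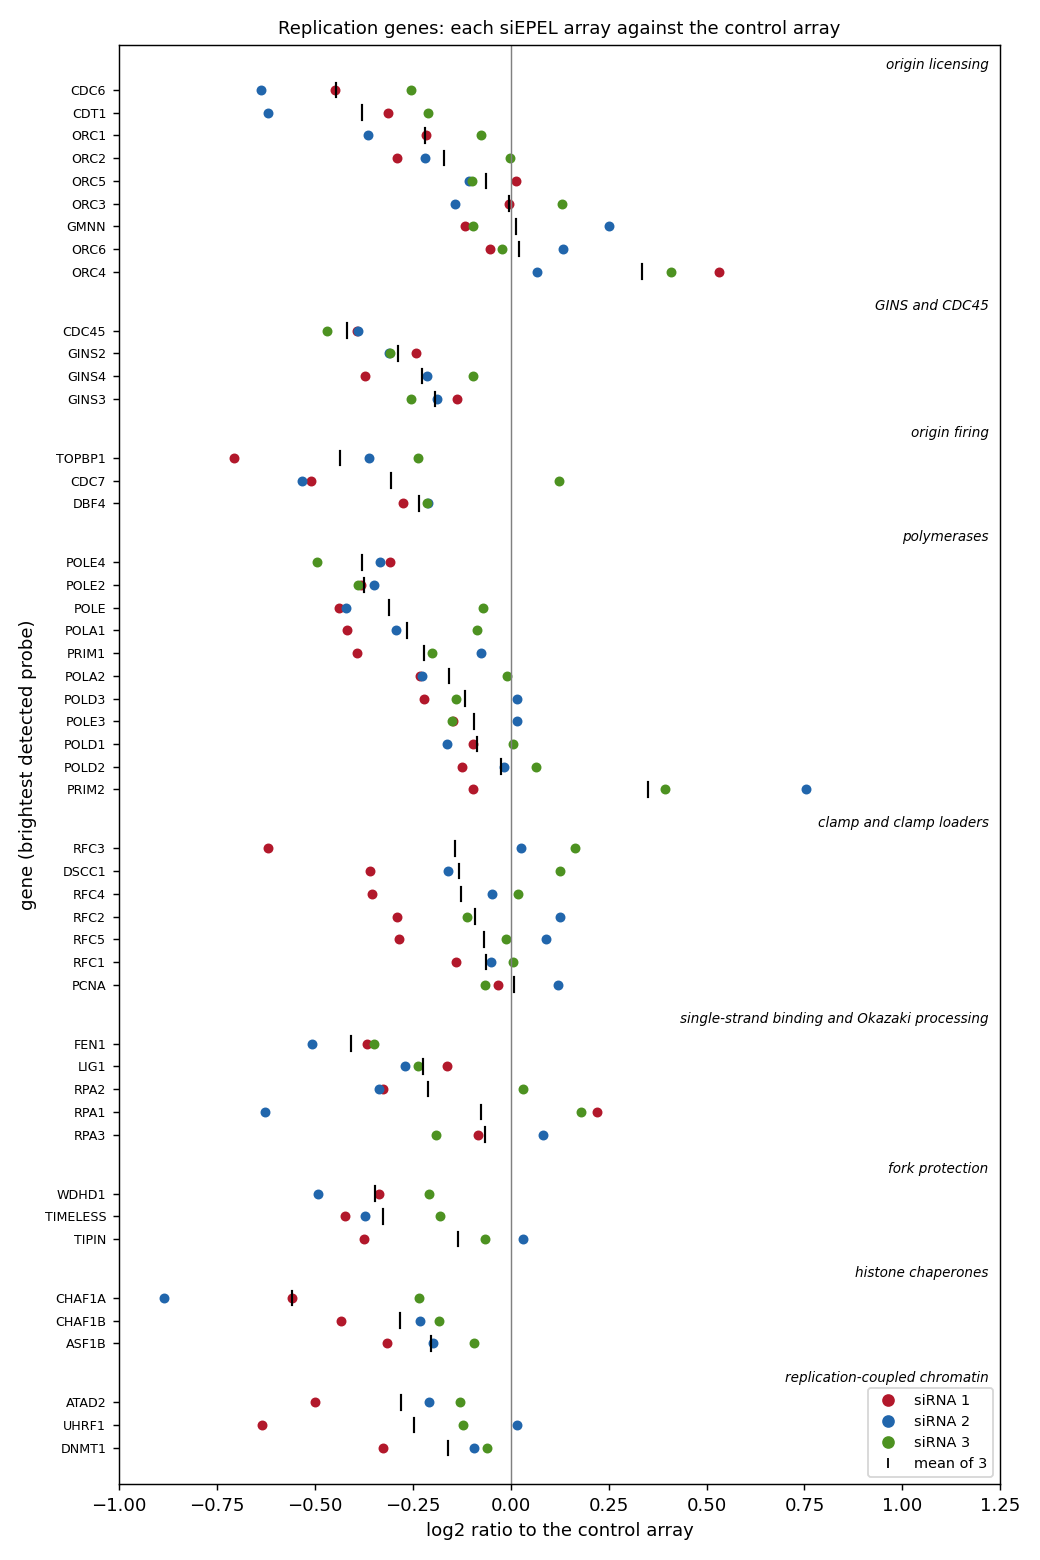
Log2 ratio of each siEPEL array to the control array (horizontal axis) for the 48 measured genes, grouped by role and ordered by their mean within a role. Dots are single arrays and black bars the mean of 3; most dots lie left of 0, and those of ORC4 and PRIM2 reach furthest right.

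The siRNAs differed in how far the genes stood from the control. Below the control were 45 of 48 genes with siRNA 1, 35 with siRNA 2 and 36 with siRNA 3, where the shares of all genes were 49.7%, 49.7% and 50.3%. At least 1.5-fold lower were TOPBP1, UHRF1 and RFC3 with siRNA 1, 3 of 48 against 3.22% of all genes. With siRNA 2 they were CHAF1A, CDC6, CDT1 and RPA1, 4 of 48 against 3.26%. With siRNA 3 there were 0, against 1.21% of all genes. In the other direction PRIM2 with siRNA 2 was the 1 gene past 1.5-fold, where 2.48% of all genes were, and the counts for siRNAs 1 and 3 were 0, against 1.90% and 0.961% of all genes.

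Setting the 3 siEPEL arrays against each other does not involve the control. Among them the lowest value belonged to siRNA 1 in 26 of the 48 genes, to siRNA 2 in 15 and to siRNA 3 in 7. Over all genes the shares were 35.5%, 33.1% and 31.4%. Which array was lowest varied by role. SiRNA 1 was lowest in 6 of 7 clamp and loader genes, 7 of 11 polymerase genes and all 3 genes of replication-coupled chromatin. SiRNA 2 was lowest in 6 of 9 licensing genes and 4 of 5 single-strand binding and Okazaki genes. These are counts of few genes on single arrays, without a test.

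**Figure D2:**
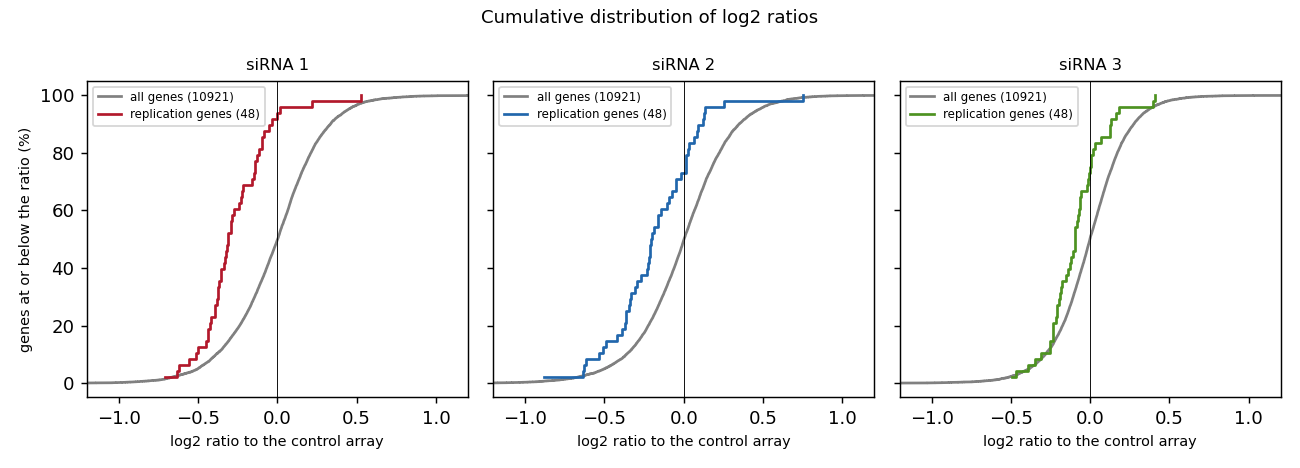
Share of genes at or below each log2 ratio to the control array, for siRNAs 1, 2 and 3, with the 48 replication genes coloured and all 10921 genes in grey. The coloured curve lies furthest left of the grey one with siRNA 1 (medians -0.31 and 0.0016) and closest to it with siRNA 3 (-0.10 and -0.0020).

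Among the licensing genes, the MCM loading factors CDC6 and CDT1 lay lowest and most ORC subunits lay nearer the control. CDC6, the ATPase that joins ORC to load the helicase, had log2 levels of 6.25 in control cells and 5.80, 5.61 and 6.00 after siRNAs 1, 2 and 3. CDT1, its partner in loading, had 9.56, 9.25, 8.95 and 9.35. All 3 siEPEL arrays were below the control for both genes, siRNA 2 furthest. The log2 fold changes were -0.45 ± 0.22 (SE) for CDC6 and -0.38 ± 0.23 for CDT1. CDC6 is dim, and its value was -0.27 without background correction and -0.29 with an offset of 50 in place of 16.

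The inhibitor of CDT1, geminin (GMNN), did not follow. Its log2 levels were 8.78 in control cells and 8.66, 9.03 and 8.68 after siRNAs 1, 2 and 3, on both sides of the control, with a log2 fold change of 0.01 ± 0.23. On the siRNA 2 array, CDT1 was at 0.651-fold and GMNN at 1.19-fold the control.

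Of the ORC subunits, ORC1, the cell-cycle-regulated one, stood at 0.861-fold, 0.776-fold and 0.949-fold after siRNAs 1, 2 and 3, a log2 fold change of -0.22 ± 0.21. ORC2 was at -0.17 ± 0.21, ORC3 at -0.0042 ± 0.21, ORC5 at -0.06 ± 0.20 and ORC6 at 0.02 ± 0.21. Only ORC1 and ORC2 among these had the control above all siEPEL arrays, ORC2 by 0.999-fold with siRNA 3. Second probes gave -0.04 for ORC5 and 0.15 for ORC6. ORC4 was not detected on the control array (detection p 0.0117) and was detected on all 3 siEPEL arrays, at log2 levels of 6.09, 5.63 and 5.97. Measured against the dimmest detected signal of the control array, at 5.62, the siEPEL mean was at least 1.21-fold higher. That bound does not hold for siRNA 2 alone, where raw signals were 89.2 with siRNA 2 and 88.9 in the control. ORC4 was kept because of its signal after EPEL knockdown, a choice that favours higher values there, so the bound is no evidence of a rise. The measured control level was 5.56 and the siEPEL mean 5.90, with an adjusted p of 1.00 (limma). The licensing median was -0.11 ± 0.03 (SD, 3 siRNAs) over 9 genes.

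CDC45 and the 3 measured GINS subunits stood below the control with each siRNA, and the median of these 4 genes differed little between siRNAs. CDC45, which bridges MCM and GINS in the active helicase, had log2 levels of 10.31 in control cells and 9.91, 9.92 and 9.84 after siRNAs 1, 2 and 3. GINS2 had 10.38, 10.14, 10.07 and 10.07. The siEPEL values of these 2 genes lay close together and all were below the control. The log2 fold changes were -0.42 ± 0.20 (SE) for CDC45 and -0.29 ± 0.20 for GINS2. GINS3 was at -0.14, -0.19 and -0.25 with the 3 siRNAs, or -0.19 ± 0.20. GINS4 varied more, at -0.37, -0.21 and -0.10, or -0.23 ± 0.21.

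The control was above all siEPEL arrays in all 4 of these genes. The SD of the ratio over the 3 siRNAs was 0.046 for CDC45, 0.039 for GINS2, 0.059 for GINS3 and 0.14 for GINS4, against a median of 0.17 over all genes. Where the 3 siEPEL arrays are as close as for CDC45 and GINS2, the size of the difference rests on the single control value. The group's median was 19.2%, 16.6% and 17.7% lower than in control cells, which averages to a log2 median of -0.28 ± 0.02 (SD, 3 siRNAs). GINS1 was measured by 1 probe that was detected on 0 arrays, with detection p between 0.0143 and 0.123, and is left out of these values.

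**Figure D3:**
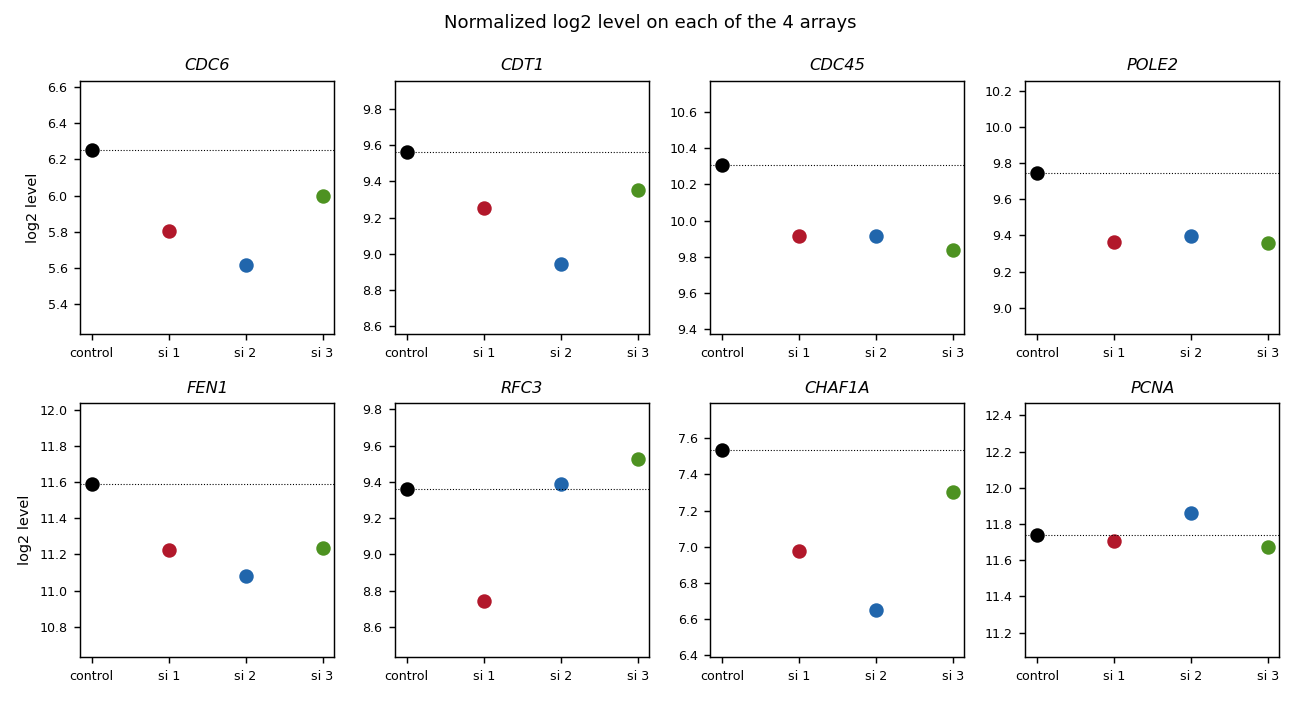
Normalized log2 level of 8 genes on the control array (black, dotted line) and on the siRNA 1, 2 and 3 arrays (red, blue, green), each panel spanning the same height on the log2 scale. CDC45 and POLE2 show 3 siEPEL values close together below the control, RFC3 is low with siRNA 1 alone, and PCNA lies on both sides.

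The median of the 3 origin firing genes was -0.36 ± 0.15 (SD, 3 siRNAs), as the mean of the 3 array medians. TOPBP1, a scaffold that helps bring GINS to the origin and also activates the checkpoint kinase ATR, had log2 levels of 9.90 in control cells and 9.19, 9.54 and 9.67 after siRNAs 1, 2 and 3. All 3 were below the control, and the log2 fold change was -0.43 ± 0.24 (SE). The kinase gene CDC7 had 8.57, 8.06, 8.04 and 8.70, low with siRNAs 1 and 2 and above the control with siRNA 3. Its log2 fold change was -0.31 ± 0.28, and it was -0.19 without siRNA 2 and -0.52 without siRNA 3. DBF4, the activating subunit of that kinase, was at 0.827-fold, 0.864-fold and 0.863-fold, or -0.23 ± 0.20.

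The polymerase genes are given by complex, and differences between the complexes were not tested. Of polymerase epsilon, the leading strand enzyme, 3 of 4 genes were below the control on every siEPEL array. The subunit POLE2 had log2 levels of 9.75 in control cells and 9.37, 9.40 and 9.36 after siRNAs 1, 2 and 3. The small subunit POLE4 had 11.40, 11.09, 11.07 and 10.91. All siEPEL values of both genes were below the control. The log2 fold changes were -0.37 ± 0.20 (SE) for POLE2, whose SD over the siRNAs was 0.022, and -0.38 ± 0.21 for POLE4. The catalytic subunit POLE was at 0.738-fold, 0.747-fold and 0.952-fold, or -0.31 ± 0.23. The histone-fold subunit POLE3 was at -0.09 ± 0.20, with the control inside the siEPEL range.

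Polymerase alpha and primase lay down the RNA-DNA primers. By the brightest probe, 3 of their 4 genes were below the control on every siEPEL array. POLA1 was at 0.749-fold, 0.816-fold and 0.942-fold after siRNAs 1, 2 and 3 (-0.27 ± 0.22). Its second probe, at -0.26, -0.43 and 0.20, gave -0.16 ± 0.27. That probe was detected on the siRNA 3 array only, where it stood above the control. POLA2 was at -0.16 ± 0.21. The catalytic primase gene PRIM1 was at -0.22 ± 0.22, and its second probe, at -0.44, -0.24 and -0.17, gave -0.28 ± 0.21. The other primase subunit, PRIM2, went the other way with siRNAs 2 and 3. Its log2 levels were 6.08 in control cells and 5.98, 6.83 and 6.47, a log2 fold change of 0.35 ± 0.31 with a wide spread over siRNAs (SD 0.43).

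Polymerase delta, which completes the lagging strand, had 3 members, all with the control within the siEPEL range. POLD1, its catalytic subunit, was at -0.08 ± 0.20 and POLD3 at -0.12 ± 0.21. POLD2 had log2 levels of 10.02 in control cells and 9.90, 10.00 and 10.09 after siRNAs 1, 2 and 3. Its log2 fold change was -0.03 ± 0.20, its second probe gave 0.11 ± 0.23, and the mean of both was above 0. POLD4, a small delta subunit counted among the further factors and not among the 48 genes, had log2 levels of 8.30 in control cells and 8.83, 8.59 and 8.31, with the control below all 3. The median over all 11 polymerase genes was -0.16 ± 0.07 (SD, 3 siRNAs), and the control was above all siEPEL arrays in 6 of them.

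The sliding clamp and its loaders stood below the control mainly with siRNA 1. Their median gene lay 18.2% below the control with siRNA 1 and 1.94% and 0.390% above it with siRNAs 2 and 3. All 7 genes were below the control with siRNA 1, and 3 of 7 with each of the other siRNAs. In 0 of 7 was the control above all siEPEL arrays by the brightest probe, though it was by the second probes of RFC4 and PCNA. The mean log2 median was -0.09 ± 0.18 (SD, 3 siRNAs) and became 0.02 without siRNA 1.

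RFC3, a subunit of the loader that opens PCNA around DNA, had log2 levels of 9.36 in control cells and 8.74, 9.39 and 9.53 after siRNAs 1, 2 and 3. Its log2 fold change was -0.14 ± 0.30 (SE) and became 0.10 without siRNA 1, while its second probe was at -0.27, 0.09 and 0.09. DSCC1, part of the alternative loader used in sister chromatid cohesion, had 8.98, 8.62, 8.82 and 9.11, a log2 fold change of -0.13 ± 0.24. Both genes were lowest with siRNA 1 and above the control with siRNA 3. The loader genes RFC2, RFC4 and RFC5 were at 0.818-fold, 0.783-fold and 0.821-fold with siRNA 1, and between 0.926-fold and 1.09-fold with the other siRNAs. The second probe of RFC4, at -0.27, -0.13 and -0.13, gave -0.18 ± 0.20. That of RFC2 was at 0.05 with siRNA 1, where the brightest RFC2 probe was at -0.29. The large subunit gene RFC1 had log2 levels of 9.27 in control cells and 9.13, 9.22 and 9.27, a log2 fold change of -0.06 ± 0.20, with 0.03 ± 0.20 by its second probe.

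PCNA, the clamp itself and a gene that p53 can also induce, had log2 levels of 11.74 in control cells and 11.71, 11.86 and 11.67 after siRNAs 1, 2 and 3. These values straddle the control, with a log2 fold change of 0.0080 ± 0.21 that was -0.03 with median scaling in place of quantile normalization. The second PCNA probe was below the control on every siEPEL array, at -0.06, -0.02 and -0.27, and gave -0.12 ± 0.21.

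**Figure D4:**
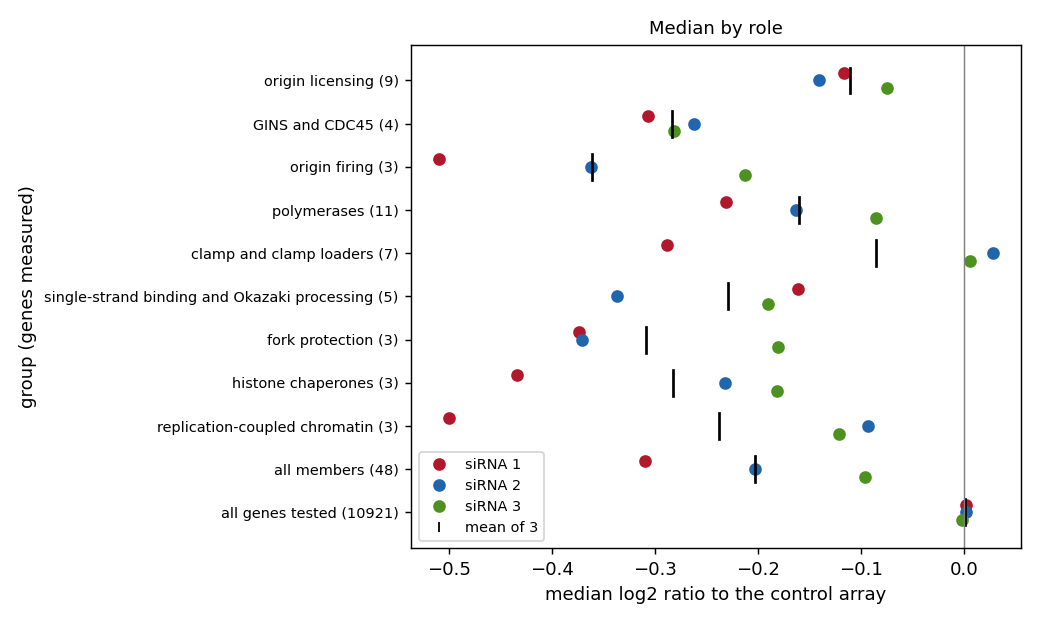
Median log2 ratio to the control array for each role (number of measured genes in brackets), for all 48 members and for all genes, with 1 dot per siRNA and a black bar for the mean of 3. Clamp genes are near 0 with siRNAs 2 and 3, while the 3 dots of GINS and CDC45 nearly coincide near -0.28.

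The Okazaki fragment enzymes among the members, FEN1 and LIG1, stood below the control with all 3 siRNAs. Nuclease genes outside the members varied. DNA2, RNASEH2A and RNASEH2B lay on both sides of the control, and RNASEH2C was below it on every siEPEL array. FEN1, the flap endonuclease that trims fragment ends, had log2 levels of 11.59 in control cells and 11.22, 11.08 and 11.24 after siRNAs 1, 2 and 3. DNA ligase 1 (LIG1), which seals the nicks, had 9.23, 9.06, 8.96 and 8.99. All siEPEL values of both genes were below the control, by more than their own range at the brightest probe of each. The log2 fold changes were -0.41 ± 0.20 (SE) for FEN1, and -0.22 ± 0.20 for LIG1. The second FEN1 probe was at -0.34, -0.41 and -0.16, a wider range than its distance from the control with siRNA 3, and gave -0.30 ± 0.21.

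The single-strand binding protein RPA differed by subunit and by siRNA. RPA1, its large subunit, had log2 levels of 11.70 in control cells and 11.93, 11.08 and 11.88 after siRNAs 1, 2 and 3. The low value with siRNA 2 was present in all 3 RPA1 probes, which stood at 0.647-fold, 0.588-fold and 0.453-fold. With siRNA 1 the same probes were at 1.16-fold, 1.35-fold and 0.962-fold, and with siRNA 3 at 1.13-fold, 1.18-fold and 0.976-fold. The SD over the siRNAs, 0.48, was at the 97.0th percentile of all genes and was the widest among the 48 members. RPA1 was therefore low with siRNA 2 alone, and its log2 fold change over the 3 siRNAs was -0.08 ± 0.33. RPA2 was at 0.798-fold, 0.792-fold and 1.02-fold (-0.21 ± 0.23), and RPA3 at -0.06 ± 0.21. The median of this role was -0.23 ± 0.09 (SD, 3 siRNAs) over 5 genes.

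**Figure D5:**
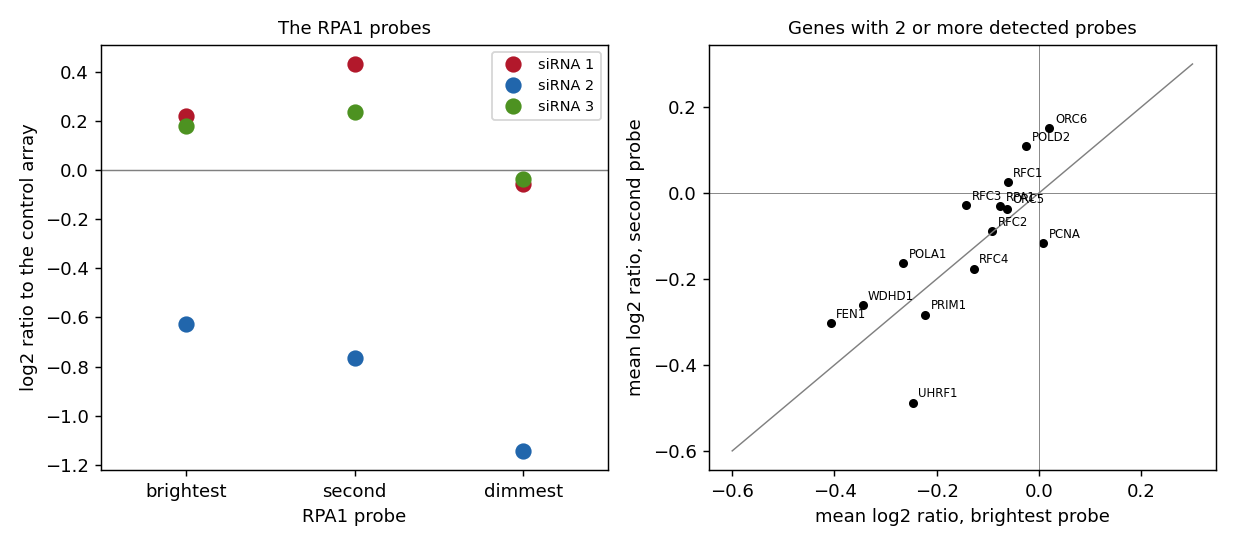
Left, log2 ratio to the control array of the 3 RPA1 probes (brightest, second and dimmest by mean level), 1 dot per siRNA; right, mean log2 ratio by the second probe against that by the brightest for the 14 genes with 2 or more detected probes, with the line of equality. All 3 RPA1 probes are lowest with siRNA 2, and 3 of the 14 genes (POLD2, PCNA and RFC1) change sign between probes.

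Of the fork protection genes, WDHD1 and TIMELESS were below the control on every siEPEL array. WDHD1, which ties polymerase alpha to the helicase, had log2 levels of 8.32 in control cells and 7.99, 7.83 and 8.11 after siRNAs 1, 2 and 3. TIMELESS, which keeps helicase and polymerase together, had 10.98, 10.56, 10.61 and 10.80. For both, siRNA 3 was nearest the control at the brightest probe. The second WDHD1 probe, at -0.29, -0.20 and -0.28, was nearest with siRNA 2. The log2 fold changes were -0.34 ± 0.21 (SE) for WDHD1, with -0.26 ± 0.20 by its second probe, and -0.32 ± 0.21 for TIMELESS. Its partner TIPIN was at 0.772-fold with siRNA 1 and 1.02-fold and 0.956-fold with the others (-0.14 ± 0.23). The median over these 3 genes was -0.31 ± 0.11 (SD, 3 siRNAs). CLSPN, the checkpoint mediator claspin, was detected on 0 arrays, with detection p between 0.0416 and 0.436.

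The 3 member genes for histone chaperones that deposit new H3-H4 behind the fork were below the control on every siEPEL array. Chaperone genes outside the members varied. NASP was below the control on every siEPEL array, ASF1A was above it on every one, and RBBP4 lay on both sides. CHAF1A, the large subunit of chromatin assembly factor 1, had log2 levels of 7.53 in control cells and 6.98, 6.65 and 7.30 after siRNAs 1, 2 and 3. CHAF1B, its middle subunit, had 9.01, 8.58, 8.78 and 8.83. CHAF1A was lowest with siRNA 2 and CHAF1B with siRNA 1. The log2 fold changes were -0.56 ± 0.27 (SE) for CHAF1A and -0.28 ± 0.21 for CHAF1B. ASF1B, which hands histones to that complex, was at 0.803-fold, 0.872-fold and 0.937-fold (-0.20 ± 0.21). The median of the 3 genes was -0.28 ± 0.13 (SD, 3 siRNAs).

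The genes that copy DNA methylation and mark replicated chromatin were lowest with siRNA 1. UHRF1, which recruits the maintenance methyltransferase to hemimethylated DNA, had log2 levels of 10.92 in control cells and 10.29, 10.94 and 10.80 after siRNAs 1, 2 and 3. DNMT1, that methyltransferase, had 12.26, 11.93, 12.16 and 12.20. UHRF1 was low with siRNA 1 alone by its brightest probe. Its log2 fold change was -0.25 ± 0.27 (SE), -0.05 without siRNA 1 and -0.38 without siRNA 2, while the second probe, at -0.84, -0.11 and -0.51, gave -0.49 ± 0.28. DNMT1 was at -0.16 ± 0.21, and at -0.08 without siRNA 1.

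ATAD2, a bromodomain ATPase found on replicating chromatin, had log2 levels of 9.52 in control cells and 9.02, 9.31 and 9.39 after siRNAs 1, 2 and 3. All 3 were below the control, with a log2 fold change of -0.28 ± 0.23 that was -0.17 without siRNA 1. The median of this role was -0.24 ± 0.23 (SD, 3 siRNAs) and became -0.11 without siRNA 1.

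The start regions share motifs that had no part in choosing the genes. Promoter windows of 250 bases before to 50 after the start were matched for 44 of the 50 genes. A match to TTCCCGC or TTGGCGC on either strand was present in 26 of the 44 windows (59.1%), against 15.0% of windows of all tested genes and 9.33% of all windows in the table. CCAAT was present in 52.3%, against 37.1% for tested genes and 35.7% for all windows. The late cell cycle element TTTGAA was present in 4.55%, against 9.82% and 15.4%. A TTGGCGC match can overlap a CCAAT match on the opposite strand, as in CHAF1A and ORC1.

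The measured members were described by whether the window held an E2F form. The 24 with a match had a median log2 fold change of -0.26, and the control was above all siEPEL arrays in 15. The 18 without one had a median of -0.11, and the control was above in 8. Over all tested genes with a window, the medians were -0.02 with a match and -0.0019 without, and the control was above all siEPEL arrays in 21.5% and 19.7%. Low members without an exact match included CDC45 and FEN1, and PCNA held one while near the control. These values are a description without a test.

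The wider replication machinery also lay below the control. Of 41 further replication and chromatin assembly factors, 37 were measured, and their median was -0.19 ± 0.11 (SD, 3 siRNAs). The control was above all siEPEL arrays in 14 of the 37, against 20.3% of all genes. It was below all of them in 3, against 20.5% of all genes. With limma, 0 of the 37 passed in either direction, against 0.00% of all genes. The lowest detected on all arrays were TRAIP, a ubiquitin ligase of stalled replisomes, at -0.39 ± 0.24 (SE), MTBP, a partner of the firing factor TICRR, at -0.36 ± 0.22, and CHTF18, a subunit of the loader that holds DSCC1, at -0.34 ± 0.26. The highest were POLD4, a small subunit of polymerase delta, at 0.28 ± 0.24, the histone chaperone ASF1A at 0.25 ± 0.23 and MCM8 at 0.21 ± 0.22. ASF1A thus lay opposite to its paralog ASF1B in the siEPEL mean, a difference between the paralogs that was not tested. The helicase genes MCM2 to MCM7 had a median of -0.25 ± 0.12 (SD, 3 siRNAs), next to -0.28 ± 0.02 for their helicase partners CDC45 and GINS.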

How the data were processed

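The authors deposited raw intensities, each the mean signal of a probe's beads, as a BeadStudio export per the submitters' processing notes. They are linear, neither background-subtracted nor normalized. Detection p-values stand beside them, per the file headers. A second deposited table holds processed intensities and served as an alternative. How it was normalized could not be settled from its values.

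The raw intensities were background-corrected with limma 3.58.1 (R 4.3.3; normexp, its parameters inferred through the detection p-values), with an offset of 16, then quantile normalized and taken to log2, as neqc does. The offset understates fold changes of dim probes. The 18200 probes with a detection p under 0.01 on 1 or more arrays were fitted with lmFit and eBayes, siEPEL against control, as a 2-sided test. Benjamini-Hochberg adjustment ran over all of them, and the fit had 2 residual degrees of freedom. It takes the spread of the lone control array to be that of the siEPEL arrays. The fit was run on simulated data with larger changes than those of the members and the same spread in both groups. That run does not show how the fit performs on changes as small as those here.

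Genes were named from the platform annotation, with 30113 probes of 1 gene, 8 of several and 17107 unnamed here, and each is represented by its brightest tested probe. A fold against a group without detection is a bound against the dimmest detected signal. With 4 arrays, their number sets the precision. The members, roles and lists were chosen with earlier results of these data known. Values on every array are given for at least the 2 members of each role furthest from the control, for PCNA, CDC45, CDC6, CDT1, GMNN, CHAF1A, UHRF1 and DNMT1, and for members whose probes differ in sign. Other members with values on every array were chosen after their values were seen. Of the further factors, the 3 highest and 3 lowest are named. Alternatives changed the background, normalization, offset, filter, probe summary, variance prior and arrays used.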

Additional observations from a re-analysis of the deposited data

How the results depend on the processing

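With every alternative, limma called 0 probes and 0 members at an adjusted p under 0.05. The median of the replication genes, -0.20, ranged from -0.26 to -0.15, and each role's median stayed below 0 except that of the clamp and its loaders, which was 0.02 without siRNA 1. The count of genes with the control above all siEPEL arrays, 25, ranged from 25 to 35. With 1 siEPEL array left out, the control has fewer arrays to lie above or below. Such counts are easier to reach and cannot be compared with those from all arrays. The share over all genes was not computed for each alternative. The median of GINS and CDC45 was -0.31 with median scaling. The count with the control below all siEPEL arrays, 1, was 0 among probes detected on all 4 arrays, which drops ORC4, and 1 to 3 when 1 siEPEL array was left out. Genes close to the control changed sign. With median scaling PCNA was at -0.028 and GMNN at -0.0022, and with the mean of a gene's probes PCNA was at -0.054 and POLD2 at 0.042. Leaving out 1 siEPEL array gave ranges of -0.049 to 0.045 for PCNA, -0.11 to 0.077 for GMNN, -0.071 to 0.025 for POLD2 and -0.30 to 0.10 for RFC3. The cause was not tested. No paired analysis was possible because a single control array is shared by all siEPEL arrays. Dim signal limits the members CDC6, DBF4, PRIM2 and ORC4, whose control levels lay within 1 log2 unit of the dimmest detected signal. The same holds for TRAIP and RNASEH2C among the further factors named here, at control levels of 6.56 and 6.57.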
